A study of Homo sapiens with 24 samples.

Results

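Splicing regulators other than the PTBP family were described here across 7 miRNAs expressed in a human cell line. The members were the protein-coding genes whose symbol begins with SRSF, HNRNP, RBFOX, MBNL, CELF, KHDRBS, TIA1, TIAL1, ELAVL, NOVA, QKI, ESRP or RBM followed by a digit, with a mean level of at least 1 CPM (counts scaled to library size) in the empty vector libraries of a batch. Of 29794 genes in the count tables, 93 had such a symbol and 83 reached that level. The same 83 genes did so in both batches, and all 83 were tested in every comparison. They comprised 11 SR proteins, 21 hnRNP proteins, 15 tissue-type regulators (RBFOX, MBNL, CELF, KHDRBS, NOVA, QKI and ESRP), 4 TIA and ELAV-like proteins and 32 numbered RBM proteins. The member nearest to the limit was ESRP1 at 1.24 CPM in both batches, and the closest gene left out was RBM44 at 0.886 CPM in batch 1 and 0.818 CPM in batch 2. The other 9 genes left out were HNRNPCL1, ELAVL3, ELAVL4, CELF3, CELF4, CELF6, RBFOX1, RBM46 and KHDRBS2. The rule itself uses only the symbol and the empty vector level.

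Alternative splicing joins different exons of a gene into different mRNAs, and the choice is set by proteins that bind the pre-mRNA near splice sites. SR proteins typically bind exons and promote their inclusion, hnRNP proteins often oppose them, and families such as MBNL, CELF, RBFOX, NOVA and ELAV-like proteins direct programmes of muscle and neurons. A miRNA pairs through its seed, the bases near its 5′ end, with sites that lie mostly in 3′UTRs and lowers the mRNA. Many splicing regulators have long, conserved 3′UTRs and also control their own mRNAs through exons that trigger decay. Not every numbered RBM protein is known to act in splicing.

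The cells were Flp-In T-REx 293, a derivative of the embryonic kidney line HEK293, transduced with a lentiviral vector and selected for 6 days in 1 mg/mL Geneticin. The vector carried a doxycycline-inducible GFP cassette. In the miRNA groups the cassette held a hairpin for 1 of 7 miRNAs, and the empty vector control was the parent GFP vector with no hairpin. All groups, the controls included, received 1 µg/mL doxycycline for 7 days before poly(A)+ RNA was sequenced. Batch 1 held 2 libraries each of empty vector, miR-1 and miR-122, and batch 2 held 3 libraries for each of 6 groups, namely empty vector, miR-155, miR-133a, miR-372, miR-373 and miR-302a. Per the methods the replicates were biological, transduced and kept apart from each other, and the cassette was under an inducible CMV promoter. Control libraries came from the batch of the miRNA in each comparison, and levels were not tested across batches.

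Libraries held 20153452 to 21595191 counted reads in batch 1 and 13047400 to 35040778 in batch 2. Known target genes of each miRNA (TWF1, SLC7A1, TAGLN2, BACH1 and LATS2) lay lower in every library of their miRNA than in every control library, with log2 fold changes from -1.99 for TWF1 with miR-1 to -0.70 for SLC7A1 with miR-122. All 6 marker genes of HEK293-type cells in the tables were above 1 CPM in every library, with summed levels of 1321 to 1768 CPM, whereas the 6 pluripotent markers summed to at most 0.226 CPM, the 6 B and T cell markers to at most 0.996 CPM and the 6 liver markers to at most 1.36 CPM. The 6 skeletal muscle markers summed to 5.74 to 10.0 CPM, mostly from MYH3. In batch 2, replicate 2 of miR-155, miR-302a and miR-372 stood farther from its group mean than any other library, and counts of calls are therefore also given without those 3 libraries.

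The 7 miRNAs carry 5 distinct seeds, and the mature strands are shown to make clear which of them share one. The sequences are from RefSeq (GRCh38.p14), 5′ to 3′, with bases 2 to 8 in capitals.
miR-1: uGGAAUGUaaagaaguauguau
miR-122: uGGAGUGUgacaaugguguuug
miR-133a: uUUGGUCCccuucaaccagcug
miR-155: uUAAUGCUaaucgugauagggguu
miR-302a: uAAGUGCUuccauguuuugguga
miR-372: aAAGUGCUgcgacauuugagcgu
miR-373: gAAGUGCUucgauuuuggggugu
The seeds of miR-372, miR-373 and miR-302a are identical, whereas miR-1 and miR-122 differ from each other inside the seed.

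A seed match was an 8mer (the reverse complement of bases 2 to 8 followed by A) or a 7mer-m8 (the reverse complement of bases 2 to 8) in the longest annotated 3′UTR of the gene in the GRCh37 genome. A 7mer-A1 (the reverse complement of bases 2 to 7 followed by A) was noted but counted only as an alternative. The matches below belong to members on which the results turn, with the match in capitals, the coordinates those of the capitals, and the position that of the first capital in the 3′UTR.
SRSF9, 8mer for miR-1, chr12:120899750-120899757 (minus strand), from base 65 of 347: tgtgctcagaatctACATTCCA
RBM47, 7mer-m8 for miR-1, chr4:40426020-40426026 (minus strand), from base 1895 of 2637: ctttaagcaccgctaACATTCC
RBM47, 7mer-m8 for miR-155, chr4:40427424-40427430 (minus strand), from base 491 of 2637: aaaaatactacataaAGCATTA
HNRNPA3, 8mer for miR-1, chr2:178085874-178085881 (plus strand), from base 1754 of 4567: aataaatgtaacagACATTCCA
HNRNPA3, 8mer for miR-155, chr2:178084817-178084824 (plus strand), from base 697 of 4567: tttgtgaatttaatAGCATTAA
MBNL3, 8mer for miR-155, chrX:131513522-131513529 (minus strand), from base 165 of 10346: caaataaaaaataaAGCATTAA
MBNL3, 8mer for miR-302a, chrX:131512350-131512357 (minus strand), from base 1337 of 10346: acagggaacagggaAGCACTTA
ELAVL2, 8mer for miR-302a, chr9:23690277-23690284 (minus strand), from base 2271 of 2453: cagtgttttatcagAGCACTTA
ELAVL2, 7mer-A1 for miR-155, chr9:23691182-23691188 (minus strand), from base 1367 of 2453: tttcctttgtaaatgGCATTAA
MBNL1, 7mer-A1 for miR-122, chr3:152182750-152182756 (plus strand), from base 2620 of 3438: gtggcacagagttagCACTCCA
MBNL1, 7mer-A1 for miR-302a, chr3:152183343-152183349 (plus strand), from base 3213 of 3438: ctggttaaaaatgttGCACTTA
RBM38, 8mer for miR-122, chr20:55983207-55983214 (plus strand), from base 625 of 1807: tctcctgcctctccACACTCCA
HNRNPUL2, 8mer for miR-302a, chr11:62482472-62482479 (minus strand), from base 292 of 2669: tttgcgcagaaagcAGCACTTA
CELF2, 8mer for miR-302a, chr10:11371539-11371546 (plus strand), from base 523 of 7622: gagaagccaggagaAGCACTTA
HNRNPA3, MBNL3, RBM47 and CELF2 each hold an 8mer or 7mer-m8 to more than 1 of the expressed seeds. MBNL1 and ELAVL2 do so only when a 7mer-A1 is counted. CELF2 is shown because its level was close to the control with miR-302a, miR-372 and miR-373 in spite of a pair of 8mers. A match is a stretch of letters, not a known binding site.

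In empty vector cells the members spanned more than 3 orders of magnitude in TPM (counts scaled by the counted length of each gene and the library size, so that levels of different genes can be compared). HNRNPA2B1, an abundant nuclear hnRNP protein, was highest at 1897 ± 5.60 TPM (SD, n = 2) in batch 1 and 2197 ± 48.7 TPM (SD, n = 3) in batch 2. The median of the hnRNP proteins was 408 TPM in batch 1 and 428 TPM in batch 2, and that of the SR proteins was 267 and 301 TPM. SRSF9 was the highest SR protein, at 724 ± 14.5 TPM (SD, n = 2) and 794 ± 26.3 TPM (SD, n = 3). Tissue-type regulators had a median of 35.5 and 32.0 TPM and numbered RBM proteins of 37.9 and 38.1 TPM. KHDRBS1, also known as SAM68, led the tissue-type regulators at 448 ± 9.54 TPM (SD, n = 2) in batch 1, and ESRP1, an epithelial splicing factor, was the lowest member at 0.871 ± 0.114 TPM (SD, n = 2). Among TIA and ELAV-like proteins, ELAVL2 at 20.7 TPM was the lowest and TIAL1 at 126 TPM the highest in batch 1. The length in these values is that of the counted exon stretches, which were short for SRSF1 (588 bases) and SRSF2 (576 bases), and for HNRNPH2 only 25 bases were counted, so its TPM is not used. The order of levels is therefore less certain for SRSF1 and SRSF2.

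**Figure D1:**
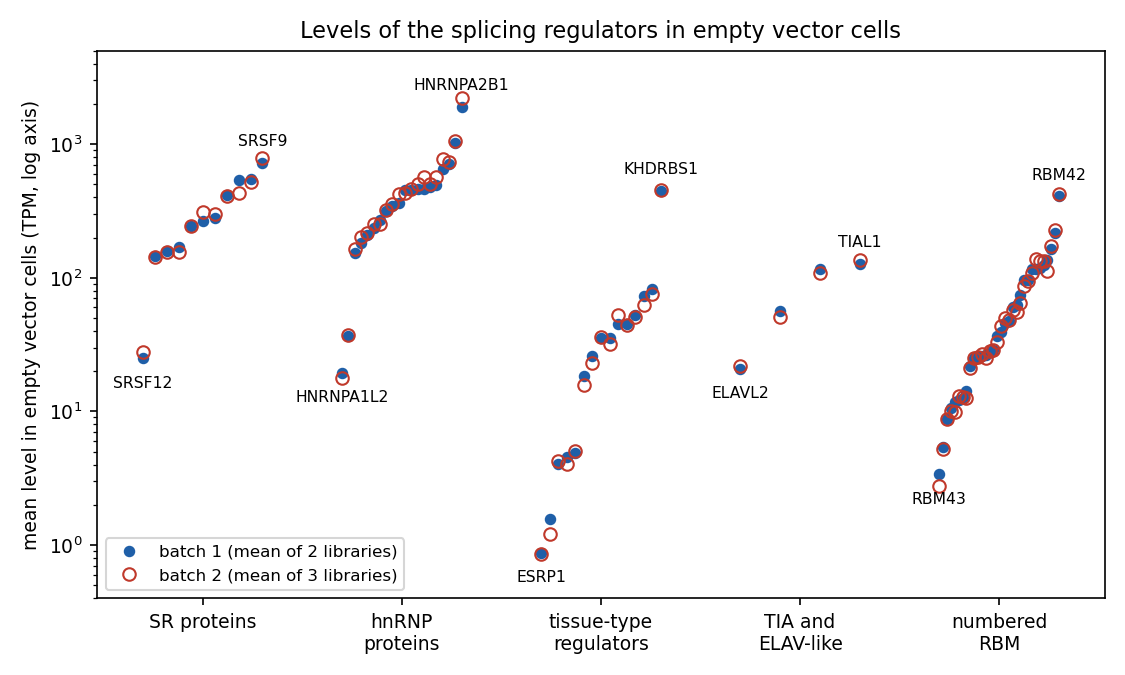
Mean level of each member in empty vector cells, in TPM on a log axis, by family, with filled points for batch 1 (2 libraries) and open circles for batch 2 (3 libraries). The lowest and highest member of each family in batch 1 are named, and HNRNPH2 is left out because only 25 bases of it were counted. The hnRNP and SR proteins lie mostly above 100 TPM and the tissue-type regulators mostly below it.

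Against the empty vector, a member was called when the adjusted p of edgeR's quasi-likelihood test, corrected over all genes tested in the batch, was below 0.05. Of the 83 members, 29 were called with at least 1 miRNA, and 54 with none. There were 51 calls in all, of which 41 were lower and 10 higher, and 10 members were called with more than 1 miRNA. Totals over several miRNAs, here and below, have no matching count over all genes beside them. They are therefore not read as a result about the members. With miR-1, 22 of 83 members (26.5%) were called, 15 lower and 7 higher, against 24.5% of the 14348 genes tested (13.7% lower, 10.8% higher). With miR-122, 6 of 83 (7.23%) were called, all lower, against 5.92% of all genes (4.06% lower, 1.86% higher). In batch 2, 14054 genes were tested. With miR-133a, 2 members were called (1 lower, 1 higher), against 5.34% of all genes (3.97% lower, 1.37% higher). With miR-155, 5 were called, all lower, against 7.63% (4.81% lower, 2.82% higher). With miR-302a, 5 were called (4 lower, 1 higher), against 7.88% (4.85% lower, 3.02% higher), with miR-372, 8 (7 lower, 1 higher), against 11.4% (6.56% lower, 4.82% higher), and with miR-373, 3, all lower, against 5.13% (3.30% lower, 1.83% higher). As shares of the 83 members, the batch 2 calls were 2.41% (miR-133a), 3.61% (miR-373), 6.02% (miR-155, and likewise miR-302a) and 9.64% (miR-372). The members' share was thus slightly above that of all genes in both comparisons of batch 1. It was below it in those of batch 2, for instance 2.41% against 5.34% with miR-133a. These differences rest on few calls and were not tested, so neither direction is read as a result about the members. The 5 comparisons of batch 2 share 1 set of 3 control libraries, as the 2 of batch 1 share 2, so calls of a member with several miRNAs are not independent of each other.

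The median log2 fold change of the members lay between -0.030 with miR-373 and 0.0056 with miR-155, and that of all genes tested between -0.0010 and 0.0057. Most members stayed near the control level. With miR-1, 66 of 83 (79.5%) had a log2 fold change within 0.2 of 0, against 68.3% of all genes, and with miR-372, 65 (78.3%) against 58.3%.

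**Figure D2:**
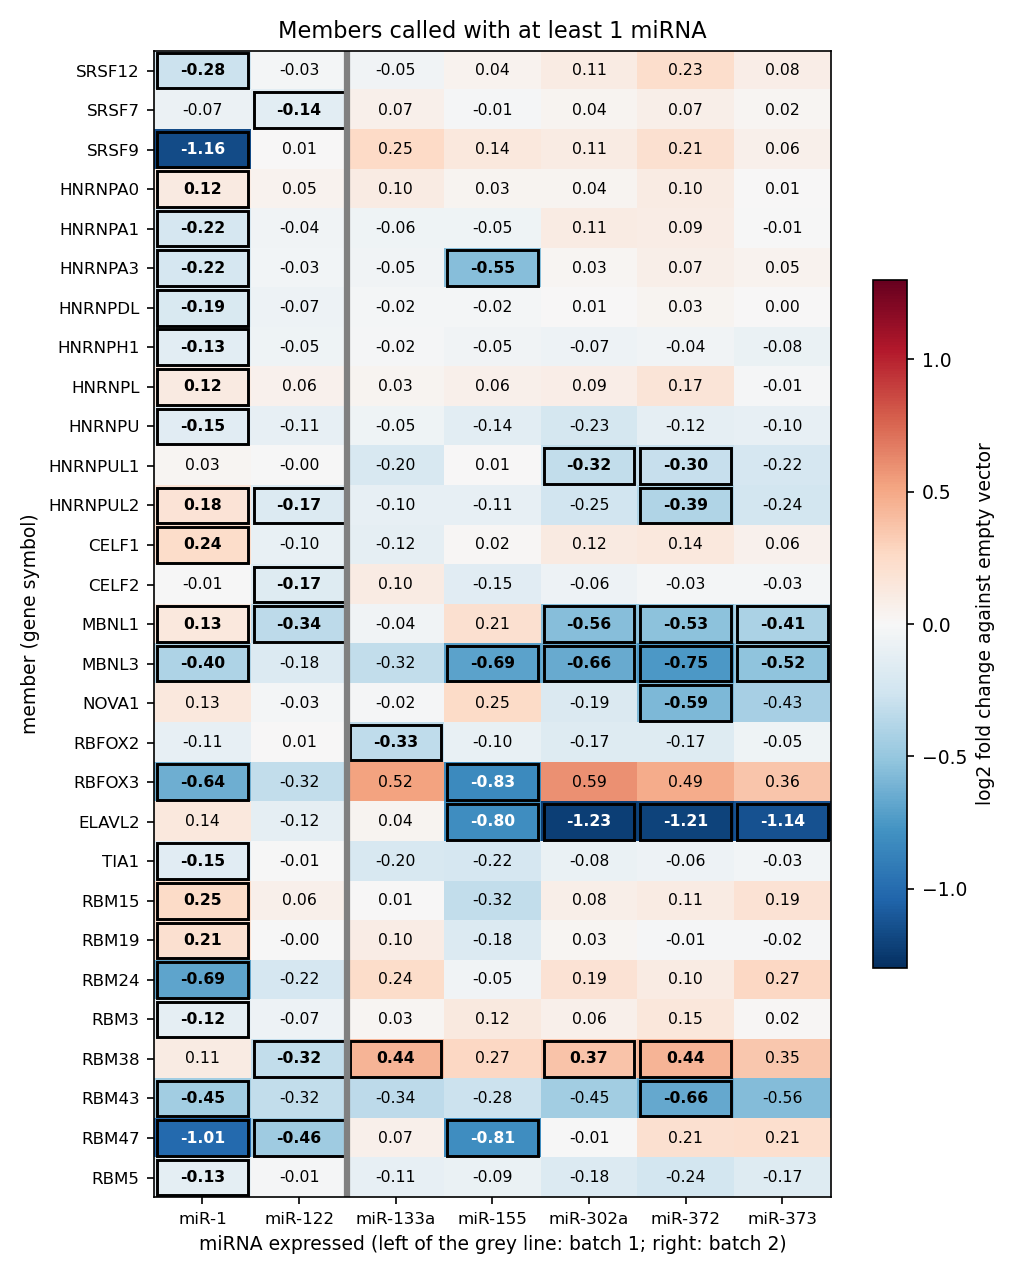
Log2 fold change against the empty vector of the same batch for the 29 members called with at least 1 miRNA, in columns by miRNA and in rows by family; blue is lower and red higher, and bold boxed values passed an adjusted p of 0.05. ELAVL2 and MBNL3 are boxed with miR-155 and with the 3 miRNAs of 1 seed, MBNL1 is boxed in both directions, and SRSF9 and RBM47 are the deepest blue in the miR-1 column.

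How many members were called depended on single libraries. Here and below, counts from fits with a library left out or with other settings lack the share of all genes called, except where it is printed. They are therefore not read as a result about the members. With miR-1, 12 were called without miR-1 replicate 1 and 10 without miR-1 replicate 2, against 21 without empty vector replicate 1, and with miR-122, 2 without miR-122 replicate 1 and 3 without miR-122 replicate 2. In those fits the lone library of a group was assumed to vary like the other groups. With miR-133a, 1 or 0 was called without any 1 of the 6 libraries compared, and with miR-302a, 3 were called without empty vector replicate 2, empty vector replicate 3, miR-302a replicate 1 or miR-302a replicate 3. With miR-372, 5 were called without any 1 of the 3 empty vector libraries and 4 without miR-372 replicate 1, and with miR-373, 2 without miR-373 replicate 3. Without the 3 libraries that stood apart, 10 members (12.0%) were called with miR-133a, 14 (16.9%) with miR-302a and 7 (8.43%) with miR-373, while the share of all 14184 genes tested rose as well, to 16.1%, 24.2% and 12.0%. The calls of SRSF9, RBM47, MBNL3, CELF1, HNRNPA1 and HNRNPA3 with miR-1, of MBNL1 and RBM38 with miR-122, of ELAVL2, MBNL3, HNRNPA3 and RBM47 with miR-155, and of ELAVL2 and MBNL3 with miR-302a, miR-372 and miR-373 stood in every alternative run.

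SRSF9 was the SR protein that moved most, and it moved with 1 miRNA. SR proteins bind exonic enhancers through RRM domains and recruit the spliceosome through domains rich in arginine and serine. The normalised level of SRSF9 was 276 and 291 CPM in the empty vector libraries and 131 and 122.1 CPM in the miR-1 libraries. The groups were far apart, with means of 283 ± 10.3 (SD, n = 2) and 126 ± 6.16 (SD, n = 2) CPM, that is a level 0.446 times the control (log2 fold change -1.16 ± 0.048 (SE), adjusted p = 8.06e-13). Its short 3′UTR of 347 bases holds the 8mer printed above. With miR-122 SRSF9 was at 294 and 275 CPM, which overlapped the controls, and in batch 2 it was not called with any miRNA (log2 fold changes from 0.062 ± 0.12 to 0.25 ± 0.12, SE). A long noncoding gene, NRAV, overlaps SRSF9 on the same strand in the annotation.

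Of the other 10 SR proteins, SRSF12 was called with miR-1 and SRSF7 with miR-122, and none was called in batch 2. SRSF12, an SR protein known to antagonise other members of the family, fell from 28.5 and 30.01 CPM to 23.5 and 24.8 CPM (log2 fold change -0.28 ± 0.069 (SE), adjusted p = 0.00603). It was no longer called under the DESeq2 Wald test or without miR-1 replicate 1 (adjusted p from 0.00127 to 0.0861 over 11 alternatives). Its 3′UTR holds no match to miR-1. SRSF7, which also acts in mRNA export, was at 333 and 348 CPM in control and 308 and 312 CPM in miR-122 libraries (log2 fold change -0.14 ± 0.039 (SE), adjusted p = 0.0467), and it has an 8mer to miR-122. The difference did not pass with DESeq2 size factors, under the DESeq2 Wald test, when only the 2 groups compared were fitted, under the replicate block, without empty vector replicate 2, without miR-122 replicate 1 or without miR-122 replicate 2 (adjusted p from 0.00615 to 0.326 over 11 alternatives). SRSF1, the archetypal SR protein, was not called with any of the 7 miRNAs, with log2 fold changes from -0.19 ± 0.13 (SE) with miR-155 to 0.10 ± 0.13 (SE) with miR-133a. SRSF10 has an 8mer to the shared seed, and with miR-302a, miR-372 and miR-373 its log2 fold changes were -0.089 ± 0.085, -0.090 ± 0.085 and -0.069 ± 0.085 (SE), none of them called.

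**Figure D3:**
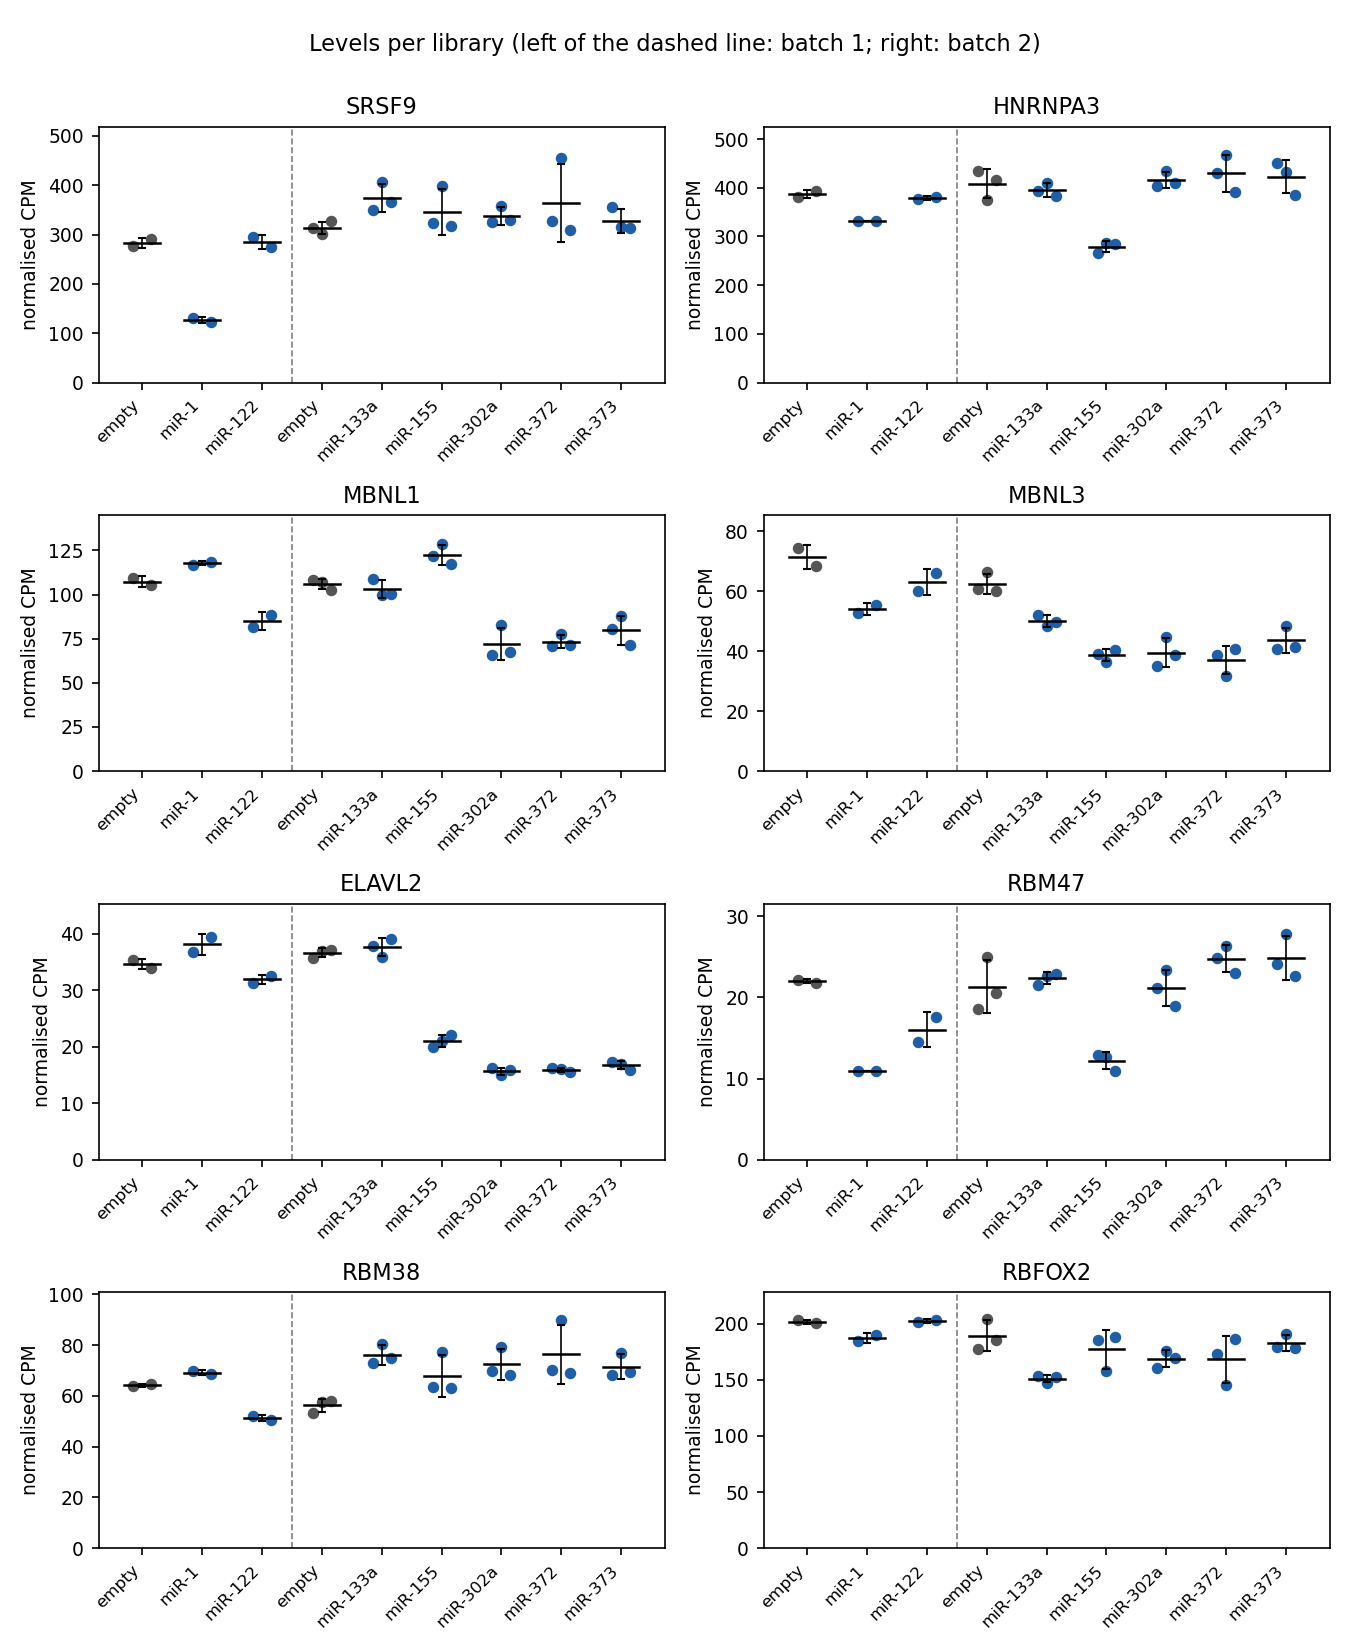
Normalised CPM of 8 members in every library (points), with the group mean (line) and SD (bar), from 0 on a linear axis; grey points are empty vector libraries. SRSF9 drops only in the miR-1 column of batch 1, ELAVL2 and MBNL1 drop in the 3 columns of the shared seed, HNRNPA3 is lowest with miR-155, and RBM38 lies below its control with miR-122 and above it in batch 2.

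Among the 21 hnRNP proteins, 8 were called with miR-1 (5 lower, 3 higher), 1 with miR-122, none with miR-133a or miR-373, 1 each with miR-155 and miR-302a and 2 with miR-372. The 8 with miR-1 were 38.1% of the family, beside 24.5% of all genes (13.7% lower, 10.8% higher), and in the other comparisons the share was at most 9.52%. HNRNPA3, an A/B-type hnRNP protein that packages pre-mRNA, was called with both miRNAs to whose seeds its 3′UTR holds an 8mer and a 7mer-m8. In batch 1 it fell from 381 and 393 CPM to 332 and 332 CPM with miR-1 (log2 fold change -0.22 ± 0.038 (SE), adjusted p = 3.24e-04). In batch 2 it was at 435, 375 and 416 CPM in control and 266, 286 and 285 CPM in miR-155 libraries (log2 fold change -0.55 ± 0.082 (SE), adjusted p = 2.34e-04). The groups did not overlap in either batch. A 7mer-m8 to miR-133a and another to the seed shared by miR-372, miR-373 and miR-302a also lie in this 3′UTR, and the gene was not called with those 4 miRNAs (log2 fold changes from -0.048 ± 0.081 to 0.073 ± 0.081, SE).

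HNRNPA1, a widely studied splicing repressor related to HNRNPA3, was at 362 and 362 CPM in control and 311 and 310 CPM in miR-1 libraries (log2 fold change -0.22 ± 0.038 (SE), adjusted p = 3.30e-04), and it has a 7mer-A1 but no 8mer or 7mer-m8 to miR-1. It was not called with any other miRNA. The annotation lists 74 pseudogenes named after HNRNPA1 and 16 after HNRNPA3, and reads that could not be placed uniquely were left out by the authors, so the levels of these genes are those of their unique stretches. HNRNPU, a scaffold protein of the nucleus, was at 1512 and 1454 CPM in control and 1339 and 1343 CPM in miR-1 libraries (log2 fold change -0.15 ± 0.037 (SE), adjusted p = 0.00696) and has an 8mer to miR-1. Significance was lost without miR-1 replicate 1 or without miR-1 replicate 2 (adjusted p from 5.33e-04 to 0.0995 over 11 alternatives). The same 3′UTR holds an 8mer to miR-122 and another to miR-155, with log2 fold changes of -0.11 ± 0.037 and -0.14 ± 0.16 (SE), neither called.

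HNRNPUL2, a relative of HNRNPU, was called in opposite directions in batch 1. It was at 254 and 253 CPM in control, 283 and 292 CPM in miR-1 and 228 and 221 CPM in miR-122 libraries, 3 groups without overlap. The differences were small, with log2 fold change 0.18 ± 0.040 (SE), adjusted p = 0.00233 for miR-1, and log2 fold change -0.17 ± 0.040 (SE), adjusted p = 0.0115 for miR-122. The call was lost without miR-122 replicate 1 or without miR-122 replicate 2 (adjusted p from 0.00389 to 0.177 over 11 alternatives). In batch 2 it has an 8mer to the shared seed and was at 245, 304 and 282 CPM in control and 201, 225 and 209 CPM in miR-372 libraries (log2 fold change -0.39 ± 0.10 (SE), adjusted p = 0.0163). It was no longer called when only the 2 groups compared were fitted, without empty vector replicate 2, without empty vector replicate 3 or without miR-372 replicate 1 (adjusted p from 0.00146 to 0.107 over 14 alternatives). With miR-302a and miR-373 its log2 fold changes were -0.25 ± 0.10 and -0.24 ± 0.10 (SE), not called. A readthrough transcript, HNRNPUL2-BSCL2, overlaps it on the same strand.

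HNRNPUL1 was called with miR-302a and miR-372. Its levels were 638, 743 and 708 CPM in control, 559, 599 and 517 CPM in miR-302a and 554, 567 and 580 CPM in miR-372 libraries, with log2 fold changes of -0.32 ± 0.077 and -0.30 ± 0.077 (SE) and adjusted p of 0.0143 and 0.0178. Its 3′UTR holds a 7mer-A1 to the shared seed. With miR-302a, the difference did not pass without empty vector replicate 2, without empty vector replicate 3, without miR-302a replicate 1 or without miR-302a replicate 3 (adjusted p from 0.00121 to 0.0981 over 14 alternatives). With miR-372, significance was lost when only the 2 groups compared were fitted, without empty vector replicate 2, without empty vector replicate 3 or without miR-372 replicate 1 (adjusted p from 0.00259 to 0.112 over 14 alternatives). HNRNPA0, a small single-exon hnRNP gene, was at 322 and 339 CPM in control and 366 and 351 CPM with miR-1 (log2 fold change 0.12 ± 0.041 (SE), adjusted p = 0.0409). The call was lost under the DESeq2 Wald test, when only the 2 groups compared were fitted, under the replicate block, without empty vector replicate 1, without miR-1 replicate 1 or without miR-1 replicate 2 (adjusted p from 0.00390 to 0.336 over 11 alternatives). The other hnRNP genes called with miR-1 were HNRNPDL and HNRNPH1, both lower, and HNRNPL, which was higher, at log2 fold changes of -0.19, -0.13 and 0.12.

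Within the tissue-type regulators, the muscleblind genes MBNL1 and MBNL3 accounted for 10 of the 16 calls. Muscleblind proteins bind short GC-containing motifs in pre-mRNA, favour adult over fetal splice forms in muscle and are the proteins trapped by expanded repeats in myotonic dystrophy. MBNL1 was called with 5 miRNAs. In batch 1 it was at 109 and 105 CPM in control, 117 and 119 CPM in miR-1 and 81.5 and 88.7 CPM in miR-122 libraries. The miR-122 libraries lay below every control library (log2 fold change -0.34 ± 0.049 (SE), adjusted p = 1.33e-04) and those of miR-1 slightly above (log2 fold change 0.13 ± 0.048 (SE), adjusted p = 0.0465). The second of these calls was close to the limit. It was no longer called under the DESeq2 Wald test, under the replicate block, without empty vector replicate 2, without miR-1 replicate 1 or without miR-1 replicate 2 (adjusted p from 0.0194 to 0.181 over 11 alternatives).

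In batch 2 MBNL1 was at 108, 107 and 103 CPM in control libraries. With miR-302a it was at 65.96, 82.6 and 67.6 CPM (log2 fold change -0.56 ± 0.089 (SE), adjusted p = 5.97e-04). With miR-372 it was at 70.7, 77.7 and 71.6 CPM (log2 fold change -0.53 ± 0.089 (SE), adjusted p = 6.87e-04), and with miR-373 at 80.3, 87.9 and 71.4 CPM (log2 fold change -0.41 ± 0.089 (SE), adjusted p = 0.00880). All 9 libraries lay below the 3 controls, which the 3 comparisons share. With miR-373, the difference did not pass without miR-373 replicate 3 (adjusted p from 2.74e-04 to 0.0822 over 14 alternatives). With miR-302a and miR-372 it passed in every alternative. MBNL1 holds no 8mer or 7mer-m8 to any of the expressed miRNAs in its longest annotated 3′UTR of 3438 bases, but it holds a pair of 7mer-A1 matches to miR-122 and 1 to the shared seed. With miR-133a and miR-155 it was not called (log2 fold changes of -0.041 ± 0.088 and 0.21 ± 0.088, SE).

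MBNL3, a muscleblind protein reported to hold back muscle differentiation, has the longest 3′UTR of the members called, 10346 bases, with an 8mer and a 7mer-m8 each to miR-155 and to the shared seed. Its control levels in batch 2 were 60.8, 66.3 and 60.1 CPM. It was at 39.1, 36.4 and 40.4 CPM with miR-155 (log2 fold change -0.69 ± 0.10 (SE), adjusted p = 2.32e-04), at 34.9, 44.7 and 38.8 CPM with miR-302a (log2 fold change -0.66 ± 0.10 (SE), adjusted p = 4.25e-04), at 38.7, 31.7 and 40.6 CPM with miR-372 (log2 fold change -0.75 ± 0.10 (SE), adjusted p = 9.14e-05) and at 40.7, 48.5 and 41.4 CPM with miR-373 (log2 fold change -0.52 ± 0.10 (SE), adjusted p = 0.00392). All 12 of these libraries lay below the controls. With miR-133a it was at 52.1, 48.4 and 49.6 CPM, also below every control, but the difference did not pass (log2 fold change -0.32 ± 0.10 (SE), adjusted p = 0.0721). In batch 1 it fell with miR-1, from 74.2 and 68.5 CPM to 52.7 and 55.4 CPM (log2 fold change -0.40 ± 0.059 (SE), adjusted p = 5.89e-05), although its 3′UTR holds no match to miR-1. MBNL2 was not called with any miRNA, its log2 fold changes ranging from -0.055 ± 0.058 to 0.10 ± 0.057 (SE).

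CELF proteins bind GU-rich RNA and often act against muscleblind proteins on the same exons. CELF1 rose with miR-1, from 174 and 162 CPM to 197 and 199 CPM (log2 fold change 0.24 ± 0.043 (SE), adjusted p = 5.80e-04), and was not called with the other 6 miRNAs. CELF2 was at 118 and 111 CPM in control and 99.4 and 104 CPM in miR-122 libraries (log2 fold change -0.17 ± 0.048 (SE), adjusted p = 0.0408) and holds a 7mer-m8 to miR-122. Significance was lost under the DESeq2 Wald test, when only the 2 groups compared were fitted, under the replicate block, without empty vector replicate 1, without miR-122 replicate 1 or without miR-122 replicate 2 (adjusted p from 0.00248 to 0.376 over 11 alternatives). With miR-1, to which CELF2 has an 8mer, its log2 fold change was -0.0078 ± 0.047 (SE), and with miR-302a, miR-372 and miR-373, to whose seed it has a pair of 8mers, it was -0.063 ± 0.10, -0.028 ± 0.10 and -0.026 ± 0.10 (SE). None of these was called.

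RBFOX2, which sets splicing around a short motif next to alternative exons, was the only member called lower with miR-133a. It was at 178, 205 and 186 CPM in control and 153, 148 and 153 CPM in miR-133a libraries, without overlap (log2 fold change -0.33 ± 0.089 (SE), adjusted p = 0.0372). The call was lost without empty vector replicate 2, without empty vector replicate 3, without miR-133a replicate 1, without miR-133a replicate 2 or without miR-133a replicate 3 (adjusted p from 0.00108 to 0.169 over 14 alternatives). Its 3′UTR holds no match to miR-133a. It holds an 8mer to the shared seed, and it was not called with miR-302a, miR-372 or miR-373 (log2 fold changes of -0.17 ± 0.089, -0.17 ± 0.088 and -0.053 ± 0.088, SE).

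RBFOX3, known as the neuronal marker NeuN, was low in these cells and was called with miR-1 and miR-155. It was at 5.46 and 6.71 CPM in control and 4.11 and 3.71 CPM in miR-1 libraries (log2 fold change -0.64 ± 0.15 (SE), adjusted p = 0.00511). It was no longer called under the DESeq2 Wald test, without empty vector replicate 2 or without miR-1 replicate 2 (adjusted p from 5.39e-04 to 0.0608 over 11 alternatives). In batch 2 it was at 6.45, 5.93 and 7.20 CPM in control and 3.91, 3.36 and 3.68 CPM in miR-155 libraries (log2 fold change -0.83 ± 0.22 (SE), adjusted p = 0.0229). The difference did not pass without empty vector replicate 1, without empty vector replicate 3 or without miR-155 replicate 2 (adjusted p from 0.00168 to 0.0886 over 14 alternatives). RBFOX3 has no match of any of the 3 kinds to any of the 5 seeds in its 3′UTR. In the other groups of batch 2 it lay mostly above the controls, for instance at 8.77, 10.1 and 9.22 CPM with miR-133a (log2 fold change 0.52 ± 0.20, SE), but none of those differences passed.

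NOVA1, a neuronal regulator, was called with miR-372 alone, at 12.5, 9.36 and 10.5 CPM in control and 6.22, 7.91 and 7.42 CPM in miR-372 libraries (log2 fold change -0.59 ± 0.15 (SE), adjusted p = 0.0148). Significance was lost when only the 2 groups compared were fitted, without empty vector replicate 1 or without miR-372 replicate 1 (adjusted p from 0.00344 to 0.0862 over 14 alternatives). With miR-302a and miR-373 its log2 fold changes were -0.19 ± 0.15 and -0.43 ± 0.15 (SE), and with miR-155, to which it has an 8mer, 0.25 ± 0.14 (SE), none called. QKI, a regulator of splicing and of circular RNA formation, has an 8mer to miR-155 near the end of its 3′UTR. It was at 202, 190 and 194 CPM in control and 163, 165 and 185 CPM in miR-155 libraries, groups that did not overlap, and the difference did not pass (log2 fold change -0.19 ± 0.068 (SE), adjusted p = 0.0926). QKI was not called with the other 6 miRNAs either, and neither was any KHDRBS or ESRP gene.

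ELAVL2, a neuronal relative of HuR that binds AU-rich RNA, showed the most negative log2 fold change of any member in batch 2. It was at 35.8, 37.04 and 37.1 CPM in the control libraries. With miR-302a it was at 16.2, 15.00 and 15.9 CPM (log2 fold change -1.23 ± 0.078 (SE), adjusted p = 3.27e-08), with miR-372 at 16.2, 15.97 and 15.5 CPM (log2 fold change -1.21 ± 0.078 (SE), adjusted p = 1.48e-08) and with miR-373 at 17.4, 16.97 and 15.9 CPM (log2 fold change -1.14 ± 0.077 (SE), adjusted p = 2.99e-08). The 9 libraries formed a narrow band at 0.428, 0.433 and 0.455 times the control. Its 3′UTR holds an 8mer and a 7mer-m8 to that seed. With miR-155 it was at 20.03, 20.95 and 22.02 CPM (log2 fold change -0.80 ± 0.077 (SE), adjusted p = 1.89e-06), where the 3′UTR holds a 7mer-A1 only. With miR-133a it was at 37.9, 35.97 and 39.1 CPM, which overlapped the controls, and in batch 1 it was not called with miR-1 or miR-122 (log2 fold changes of 0.14 ± 0.062 and -0.12 ± 0.064, SE).

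ELAVL1, the ubiquitous HuR, has an 8mer to miR-133a. It was at 206, 243 and 223 CPM in control and 182, 197 and 194 CPM in miR-133a libraries, without overlap, but the difference did not pass (log2 fold change -0.23 ± 0.082 (SE), adjusted p = 0.111). TIA1, which promotes the use of weak splice sites and forms stress granules, was called with miR-1 only, at 94.8 and 89.4 CPM in control and 82.5 and 83.6 CPM in miR-1 libraries (log2 fold change -0.15 ± 0.048 (SE), adjusted p = 0.0281). The call was lost under the DESeq2 Wald test, under the replicate block, without empty vector replicate 1, without miR-1 replicate 1 or without miR-1 replicate 2 (adjusted p from 0.00752 to 0.181 over 11 alternatives). It has an 8mer to miR-155, with which it was at 71.3, 70.7 and 72.9 CPM against 91.9, 76.9 and 81.1 CPM (log2 fold change -0.22 ± 0.081 (SE), adjusted p = 0.111). TIAL1 was not called with any miRNA.

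RBM47, an RNA-binding protein of epithelial tissues that is also a cofactor of C-to-U RNA editing, was called lower with 3 miRNAs. In batch 1 it was at 22.2 and 21.8 CPM in control, 10.9 and 10.95 CPM in miR-1 and 14.5 and 17.5 CPM in miR-122 libraries. The level with miR-1 was 0.497 times the control (log2 fold change -1.01 ± 0.10 (SE), adjusted p = 2.54e-07), and the 3′UTR holds a 7mer-m8 and a 7mer-A1 to miR-1. With miR-122, for which it holds a 7mer-A1, the fall was smaller (log2 fold change -0.46 ± 0.090 (SE), adjusted p = 0.00289). It was no longer called without miR-122 replicate 1 (adjusted p from 4.43e-05 to 0.117 over 11 alternatives). In batch 2 it was at 18.5, 24.98 and 20.5 CPM in control and 12.9, 12.7 and 10.98 CPM in miR-155 libraries (log2 fold change -0.81 ± 0.12 (SE), adjusted p = 2.75e-04), again with a 7mer-m8 and a 7mer-A1. With the remaining 4 miRNAs its libraries overlapped the controls, and it was not called.

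RBM38, a target of p53 that stabilises some mRNAs, was lower with miR-122 and higher with miR-133a, miR-302a and miR-372. In batch 1 it was at 63.7 and 64.5 CPM in control and 52.1 and 50.3 CPM in miR-122 libraries (log2 fold change -0.32 ± 0.052 (SE), adjusted p = 3.33e-04), with an 8mer and a 7mer-m8 to miR-122 in its 3′UTR. In batch 2 it was at 53.03, 57.6 and 57.9 CPM in control, and every library of the 5 miRNA groups was above that. It was at 72.97, 80.6 and 75.00 CPM with miR-133a (log2 fold change 0.44 ± 0.10 (SE), adjusted p = 0.0159), 69.6, 79.2 and 68.2 CPM with miR-302a (log2 fold change 0.37 ± 0.10 (SE), adjusted p = 0.0360) and 70.2, 89.7 and 68.97 CPM with miR-372 (log2 fold change 0.44 ± 0.10 (SE), adjusted p = 0.00999). With miR-155 and miR-373 the difference did not pass (log2 fold changes of 0.27 ± 0.10 and 0.35 ± 0.10, SE). All 5 comparisons use the same 3 control libraries, and in each of the 5 groups replicate 2 was the highest. With miR-133a, the difference did not pass without empty vector replicate 1, without empty vector replicate 2, without miR-133a replicate 2 or without miR-133a replicate 3 (adjusted p from 8.27e-05 to 0.0993 over 14 alternatives). With miR-302a, the call was lost without any 1 of the 6 libraries, and with miR-372, without empty vector replicate 1 or miR-372 replicate 2.

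RBM24, a splicing factor of heart and skeletal muscle, was at 5.51 and 5.29 CPM in control and 3.36 and 3.33 CPM in miR-1 libraries (log2 fold change -0.69 ± 0.15 (SE), adjusted p = 0.00280), a low level at which few reads carry the difference, and its 3′UTR holds no match to miR-1. RBM43 was at 5.37 and 5.01 CPM in control and 3.87 and 3.71 CPM with miR-1 (log2 fold change -0.45 ± 0.15 (SE), adjusted p = 0.0343), and at 4.35, 4.22 and 4.41 CPM in control and 3.04, 2.58 and 2.59 CPM with miR-372 (log2 fold change -0.66 ± 0.21 (SE), adjusted p = 0.0469). With miR-1, the call was lost under the DESeq2 Wald test and without any 1 of the 4 libraries, and with miR-372, in 9 of 14 alternatives, among them leaving out any 1 of the 6 libraries and leaving out the 3 libraries that stood apart. The 3′UTR of RBM43 holds a 7mer-m8 to the seed that miR-372 shares with miR-302a and miR-373. Its 8mer is to miR-122, with which the log2 fold change was -0.32 ± 0.15 (SE), not called.

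RBM15, a subunit of the complex that methylates adenosine in mRNA, rose with miR-1 from 42.1 and 38.4 CPM to 46.2 and 49.5 CPM (log2 fold change 0.25 ± 0.061 (SE), adjusted p = 0.00522). Significance was lost without miR-1 replicate 2 (adjusted p from 4.55e-04 to 0.0744 over 11 alternatives). RBM19, which acts in ribosome assembly, rose from 46.3 and 48.2 CPM to 53.7 and 55.5 CPM (log2 fold change 0.21 ± 0.054 (SE), adjusted p = 0.00826). The call was lost under the DESeq2 Wald test or without miR-1 replicate 2 (adjusted p from 0.00286 to 0.0778 over 11 alternatives). The remaining RBM genes called with miR-1 were RBM3 and RBM5, at log2 fold changes of -0.12 and -0.13. Of the 32 numbered RBM proteins, 24 were called with no miRNA, and 8mers to the expressed miRNA were found in the uncalled RBM28 and RBM12B (miR-1, log2 fold changes of -0.059 ± 0.043 and 0.074 ± 0.057, SE), RBM23 (miR-133a, -0.043 ± 0.084, SE) and RBM45 (miR-302a, -0.11 ± 0.15, SE), among others.

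Direct tests between miRNAs of a batch addressed whether members differed between them rather than from the control. Between miR-1 and miR-122, 21 of 83 members were called (10 lower and 11 higher with miR-1), against 31.2% of all genes (16.0% lower, 15.2% higher). The most negative was SRSF9 (log2 fold change -1.17 ± 0.048 (SE), adjusted p = 3.57e-13), and among called members the most positive was MBNL1 (log2 fold change 0.47 ± 0.049 (SE), adjusted p = 5.25e-07), followed by RBM38 (0.43 ± 0.051, SE), HNRNPUL2 and CELF1. HNRNPH2, at low counts, had a larger value than HNRNPUL2 and was not called (log2 fold change 0.39 ± 0.21 (SE), adjusted p = 0.174). Without miR-1 replicate 1 or 2 or miR-122 replicate 1 or 2, 12, 11, 10 and 11 members were called. Between miR-133a and miR-155, 10 members were called (3 lower and 7 higher with miR-133a), against 16.7% of all genes (8.61% lower, 8.14% higher). RBFOX3 differed by 1.351 ± 0.21 (SE, adjusted p = 1.47e-04), with 3 miR-133a libraries at 8.77, 10.1 and 9.22 CPM and 3 miR-155 libraries at 3.91, 3.36 and 3.68 CPM. RBM47 (0.88 ± 0.12, SE), ELAVL2 (0.84 ± 0.077, SE) and HNRNPA3 (0.50 ± 0.082, SE) were also higher with miR-133a, and ELAVL1 was lower (log2 fold change -0.31 ± 0.082 (SE), adjusted p = 0.0114). Without miR-133a replicate 1, 6 members were called in this comparison, and 17 (20.5%) without the libraries that stood apart, where 23.9% of all genes were called.

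For miR-372, miR-373 and miR-302a, whose seed is the same, no member was called in any of the 3 direct comparisons by edgeR's quasi-likelihood test, by its likelihood ratio test or by DESeq2, and neither was any other gene by the first of these (0.00% called). At an unadjusted p under 0.05, miR-302a differed from miR-372 in 1 member and from miR-373 in 0, and miR-372 from miR-373 in 1. The differences for ELAVL2 were -0.019 ± 0.081 (miR-302a against miR-372), -0.090 ± 0.080 (miR-302a against miR-373) and -0.071 ± 0.079 (miR-372 against miR-373) on the log2 scale (SE), and those for MBNL1 were -0.022 ± 0.090, -0.14 ± 0.089 and -0.12 ± 0.089 (SE) in the same order. MBNL3 was lower with miR-372 than with miR-373 in every library (-0.23 ± 0.10, SE), which did not pass after correction. The 8 calls with miR-372 and the 3 with miR-373 are therefore not shown to differ in kind, and 3 members (ELAVL2, MBNL1 and MBNL3) were called with all 3 miRNAs.

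Members with a seed match to the expressed miRNA were compared with those without one as a description. Counts of calls stand here without the share called among all genes with a match, so they are not read as a result about the members. Of all genes tested, with or without a match, 4.81% were called lower with miR-155, 13.7% with miR-1 and 4.06% with miR-122. With miR-155, 12 members held an 8mer or 7mer-m8, with a median log2 fold change of -0.17, against 0.013 for the other 71, and 3 of the 12 were called lower. Over all protein-coding genes tested, the 1697 with a match had a median of -0.16 and the 11344 without one of 0.026. With miR-1, 11 members with a match had a median of -0.059 (4 called lower) and 72 without one of 0.019 (11 lower, 7 higher), and with miR-122, 11 had a median of -0.061 (3 lower) and 72 of -0.021 (3 lower). With miR-133a, 6 had a median of -0.047 and none was called. All genes with a match had medians of -0.090, -0.092 and -0.14 with these 3 miRNAs, each more negative than that of the members. The shared seed had matches in 27 members, with medians of -0.0014, -0.026 and -0.033 with miR-302a, miR-372 and miR-373, where all genes with a match had medians of -0.068, -0.071 and -0.036. Members with a match to a miRNA that was not expressed gave the reference. In miR-1 cells their median was -0.059 for miR-122 matches (11 members, 2 called lower), -0.057 for miR-155 matches (12 members, 5 called lower), -0.031 for matches to the shared seed and 0.036 for miR-133a matches. In miR-122 cells it was -0.060 for miR-1 matches, beside -0.061 for the expressed miR-122. In miR-1 cells the median for miR-1 matches was thus about that for miR-122 and miR-155 matches. It was more negative than that for matches to the shared seed and to miR-133a. In miR-122 cells the median for miR-122 matches was about that for miR-1 matches, and the other seeds are not given there. HNRNPU, CELF2, RBM28 and SRSF3 hold matches to both miR-1 and miR-122. In miR-155 cells the median was -0.014 for matches to the shared seed, -0.0017 for miR-122 matches, 0.12 for miR-133a matches and -0.14 for miR-1 matches, HNRNPA3 and RBM47 among the last. In miR-133a cells it ranged from -0.036 for miR-155 matches to 0.069 for miR-122 matches. With the 3 miRNAs of the shared seed the most negative reference was that of miR-155 matches, at -0.028 with miR-373, -0.034 with miR-372 and -0.073 with miR-302a. The members' 3′UTRs were long, with a median of 2583 bases against 1534 over all genes tested in batch 1, and a match is found more readily in a longer 3′UTR.

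**Figure D4:**
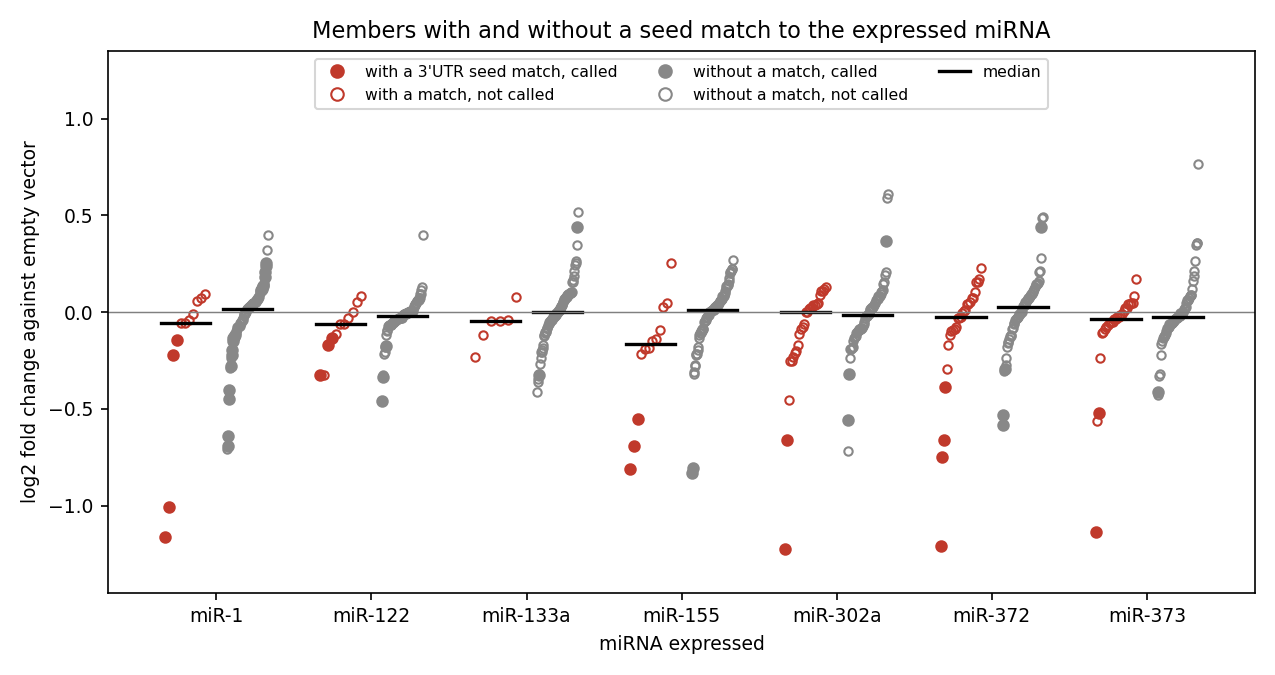
Log2 fold change of each of the 83 members against the empty vector, by miRNA, for members with an 8mer or 7mer-m8 to the expressed miRNA in the 3′UTR (red, left) and without one (grey, right); filled points were called and black lines are medians. Among the lowest red points are SRSF9 and RBM47 with miR-1, and RBM47, MBNL3 and HNRNPA3 with miR-155. ELAVL2 and MBNL3 with the 3 miRNAs of the shared seed, and RBM43 with miR-372, are also among them. Most red points lie near 0.

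Genes that work with these regulators were counted from 4 lists. With miR-1, 16 of 48 core spliceosome genes were called, 15 of them higher (SF3A1 highest, log2 fold change 0.30 ± 0.039, SE) and DHX15 lower (-0.25 ± 0.039, SE), that is 33.3% beside 24.5% of all genes. Among 25 SR-related proteins and SR kinases, 8 (32%) were called with miR-1 (3 lower, 5 higher), from RSRC1 at -0.24 ± 0.059 (SE) to LUC7L2 at 0.24 ± 0.068 (SE), and among 15 genes of nonsense-mediated decay and the exon junction complex, 6 (40%; 1 lower, 5 higher), from MAGOHB at -0.30 ± 0.061 (SE) to SMG5 at 0.20 ± 0.043 (SE). Under the DESeq2 Wald test 25 genes of the 4 lists were called with miR-1 instead of 41, and without miR-1 replicate 1 or 2 it was 23 or 22. With the other 6 miRNAs these 3 lists held at most 1 called gene each. They were AQR with miR-122 (-0.26 ± 0.055, SE), CASC3 with miR-133a (-0.35 ± 0.086, SE), SMG9 with miR-155 (0.24 ± 0.072, SE) and SNRPD1 with miR-372 (0.35 ± 0.10, SE).

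Of 32 other RNA-binding splicing regulators, 11 were called with miR-1 (8 lower, 3 higher), 34.4% beside 24.5% of all genes, and 3 with miR-122 (all lower, RAVER1 lowest at -0.997 ± 0.044, SE), 9.38% beside 5.92%. With miR-133a, 4 were called (3 lower, 1 higher), 12.5% beside 5.34%, with miR-155 1 (RALY, 0.34 ± 0.087, SE), 3.12% beside 7.63%, and none with the 3 miRNAs of the shared seed. PTBP1, PTBP2 and PTBP3 are in this list, and the extremes with miR-1 and miR-133a were genes of that family. With miR-1, PTBP1 fell by 0.79 ± 0.038 and PTBP2 rose by 1.44 ± 0.048 on the log2 scale (SE), and with miR-133a PTBP1 fell by 1.03 ± 0.081 and PTBP2 rose by 1.27 ± 0.11 (SE). PTBP3 was called with miR-133a (log2 fold change -0.62 ± 0.070, SE) and with miR-122 (-0.31 ± 0.049, SE). Most of the calls of this list with miR-133a were thus PTBP genes. No member outside that family exceeded PTBP2 in size.

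These counts are sums over the exons of a gene. They do not separate splice forms of a regulator, so a shift toward a form that is degraded and a fall of the whole gene cannot be told apart, and in bulk RNA fewer cells with a transcript and less of it per cell cannot be told apart either.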

How the data were processed

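RNA-seq counts per gene were analysed from 24 libraries in 9 groups and 2 batches. Per the deposited files and the paper's methods, the authors aligned reads with TopHat2 2.1.1 to hg19, counted uniquely placed reads over exons by strand with featureCounts and deposited raw counts with a counted length per gene. A further set of deposited tables holds the authors' own edgeR 3.24.3 comparisons (fold changes, p and false discovery rates) and was not used. Members and gene lists were chosen with earlier results of these data known. Genes passing filterByExpr (minimum count 10) were fitted with edgeR 4.0.16 (R 4.3.3, limma 3.58.1) by the quasi-likelihood test with TMM factors, all groups of a batch together. The Benjamini-Hochberg adjustment ran over all genes tested, with a threshold of 0.05 and a prior count of 0.125. The standard error was derived from the fold change and the F statistic. Normalised CPM use TMM-scaled totals, and the member rule used raw totals. The fit was tested on simulated counts. Alternatives included DESeq2 1.42.0, other filters, a replicate block and leaving out each library; leaving out 3 libraries was added after the data were seen. Named genes were called members without overlap of libraries (the 8 lowest and 6 highest per miRNA), 10 regulators named for every miRNA and up to 6 members with an 8mer. HNRNPDL, HNRNPH1, HNRNPL, RBM3 and RBM5 fall outside this rule and were named after their values were seen. Seed matches were read from GRCh37, the same build as hg19, with the GENCODE v44lift37 annotation. Tables and plots used Python 3.11.15, pandas 2.3.3, numpy 2.4.6 and matplotlib 3.10.9. The same replicate numbers did not pair miRNA and empty vector libraries: correlations of their deviations ranged from -0.19 to 0.22.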

Additional observations from a re-analysis of the deposited data

Results flagged for a closer look

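Both results below were singled out because a member was called in opposite directions with 2 miRNAs of batch 1 and the direct test between them passed as well. For MBNL1 the log2 fold change was 0.13 with miR-1 and -0.34 with miR-122, and the direct difference between miR-1 and miR-122 was 0.47. For HNRNPUL2 it was 0.18 with miR-1 and -0.17 with miR-122, and the direct difference was 0.36. Every library of miR-1 lay above, and every library of miR-122 below, both empty vector libraries for the 2 genes, and the 2 comparisons share those controls. MBNL1's call with miR-1 was lost without miR-1 replicate 1, miR-1 replicate 2 or empty vector replicate 2, and HNRNPUL2's call with miR-122 without either miR-122 library.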

How the results depend on the processing

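Of 1610 values of single members under the alternatives, 1485 kept their call or, if uncalled, moved by at most their standard error, 92 lost a call, 16 gained one and 17 uncalled values moved; no called value changed sign. Of 283 counts and medians, 201 stayed near their value and 82 moved; the cause was not tested. Whether depth or the spread between libraries limits small differences was not tested. The counts of calls below stand without the share of all genes called in the same fit, so they are not read as a result about the members.

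Under the DESeq2 Wald test the members called were 12 with miR-1, 4 with miR-133a and 11 between miR-1 and miR-122, and the genes of the 4 other lists were 25 with miR-1, 3 with miR-302a and 4 with miR-372. The likelihood ratio test gave 4 members with miR-133a, and 2 listed genes each with miR-302a and miR-372. Without the filter on low counts there were 4 members with miR-133a, and 6, 2 and 7 listed genes with miR-155, miR-302a and miR-372; above 1 CPM in every library, 1 each with miR-155 and miR-302a. With only the 2 groups compared in the fit, 9 members were called with miR-133a and 4 with miR-372, and 18, 0, 2 and 0 listed genes with miR-133a, with miR-155, with miR-302a and with miR-372. Without the 3 libraries that stood apart, 10, 14 and 7 members were called with miR-133a, miR-302a and miR-373, and 17 in the test between miR-133a and miR-155, and 18, 1, 20 and 1 listed genes with miR-133a, with miR-155, with miR-302a and with miR-373.

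With the replicate number as a block, 4 members were called with miR-133a, and 2 and 5 listed genes with miR-302a and miR-372. The numbers paired the libraries by the rule used only between miR-133a and miR-155 and between miR-372 and miR-302a, where the block moved no count by more than 1.5 times.

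Leaving out 1 library, members called ranged from 10 to 21 with miR-1, 2 to 8 with miR-122, 0 to 1 with miR-133a, 4 to 6 with miR-155, 3 to 7 with miR-302a, 4 to 8 with miR-372, 2 to 3 with miR-373, 10 to 12 between miR-1 and miR-122 and 6 to 9 between miR-133a and miR-155. Listed genes ranged from 22 to 45, 2 to 14, 3 to 5, 0 to 2, 0 to 7, 0 to 10 and 0 to 0 in the same order of miRNAs.

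The median log2 fold change of seed-matched members with 8mers only was -0.23 with miR-122 (4 members), and -0.11 with miR-302a and -0.090 with miR-372 (9 members). With 7mer-A1 matches it was -0.089 with miR-302a (37 members), and in the shortest 3′UTR -0.0023 with miR-122 (4 members) and 0.050 with miR-372 (6 members), while with miR-155 it was the value of 1 member, 0.049; no member had a miR-133a match there.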
